A study of Saccharomyces cerevisiae with 6 samples.

Results

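The genes described here encode the proteasome of budding yeast (Saccharomyces cerevisiae) together with 2 parts of its immediate surroundings, the transcription factor Rpn4 and the Cdc48-Ufd1 complex. The 34 genes were taken from a list of names, and each was represented by the probe set that the array annotation assigns to that gene alone. All 34 had exactly 1 such probe set, out of 5449 S. cerevisiae genes measured on the arrays. They comprise 7 genes of the outer (alpha) rings and 7 of the inner (beta) rings of the 20S core, 6 ATPases and 3 other subunits of the base of the 19S cap, 8 subunits of its lid, RPN4, CDC48 and UFD1.

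Wild-type yeast in mid-log phase grew for 3 h either with OGT2468 at 0.1 µM, which the labels give by code name only, or with the solvent DMSO at 0.1%. There were 3 OGT2468 cultures and 3 DMSO cultures, called biological samples by the submitters, and total RNA of each was hybridised to its own Affymetrix array. The labels give no strain background, mating type or medium, and nothing says that the cultures were started separately, so the p-values measure the spread between these samples. Transcript levels are given on the log2(intensity + 16) scale after quantile normalization across the 6 arrays, and a change is the mean of OGT2468 minus the mean of DMSO on that scale.

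The proteasome degrades proteins that carry chains of ubiquitin. Its core is a barrel of stacked rings with the proteolytic sites inside, and the cap recognises ubiquitin, removes it, and unfolds and feeds in the substrate with a ring of ATPases. In yeast Rpn4 binds a shared promoter element of most proteasome genes and activates them together, and Rpn4 is itself a very short-lived substrate of the proteasome, so that its amount rises when degradation is impaired and proteasome genes are then transcribed more. Cdc48 is an ATPase that, with Ufd1 and Npl4, pulls ubiquitinated proteins out of membranes and complexes and delivers them to the proteasome, among them misfolded proteins of the endoplasmic reticulum (ER).

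The transcripts of the proteasome were close to level between OGT2468 and DMSO cultures, and 0 of the 34 genes passed the test in either direction (limma, Benjamini-Hochberg adjusted p under 0.05 over 8968 probe sets). Across all probe sets tested 2.59% passed, 1.83% as higher and 0.758% as lower in OGT2468. The lowest adjusted p of any member was 0.282, for PRE8. At an unadjusted p under 0.05 there were 2 members, PRE8 on the higher side and RPN8 on the lower side. That is 5.88% of the 34, against 16.4% of all probe sets tested. Among the 5498 probe sets named to 1 S. cerevisiae gene, 148 passed as higher, 60 passed as lower and 1146 had an unadjusted p under 0.05. Each of these is a larger share than that over all tested probe sets, of which 3470 carry no gene name. The median change of the 31 proteasome subunits was 0.03 on the log2 scale (1.02-fold), beside a median of -0.01 over all tested probe sets and -0.02 over those named to 1 S. cerevisiae gene. Individual subunits lay between -0.21 and 0.15, and 18 of the 31 had a change above 0 and 13 below.

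Within the quantile-normalized fit, the arrays set a narrow limit on what could have been missed. The 95% interval of the change lay within 1.3-fold in either direction for 32 of the 34 members, the exceptions being RPN8, whose interval reached down to 0.756-fold, and RPN4, whose interval reached up to 1.31-fold. The intervals held 0 for 32 members. Their median half-width was 0.17 on the log2 scale and the SE of the changes was 0.07 in the median. None of the intervals of this fit held a 2-fold change. The intervals do not cover the choice of scaling between arrays. With no scaling the median change of the 31 subunits was -0.25, and that of RPN8 was -0.49. The members were measured well inside the range of the arrays, at intensities between 491.9 and 8570.8, where background (the 98th percentile of probe sets of another species) was at most 25.9 and the brightest probe set of any array lay between 13245 and 15824.

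**Figure D1:**
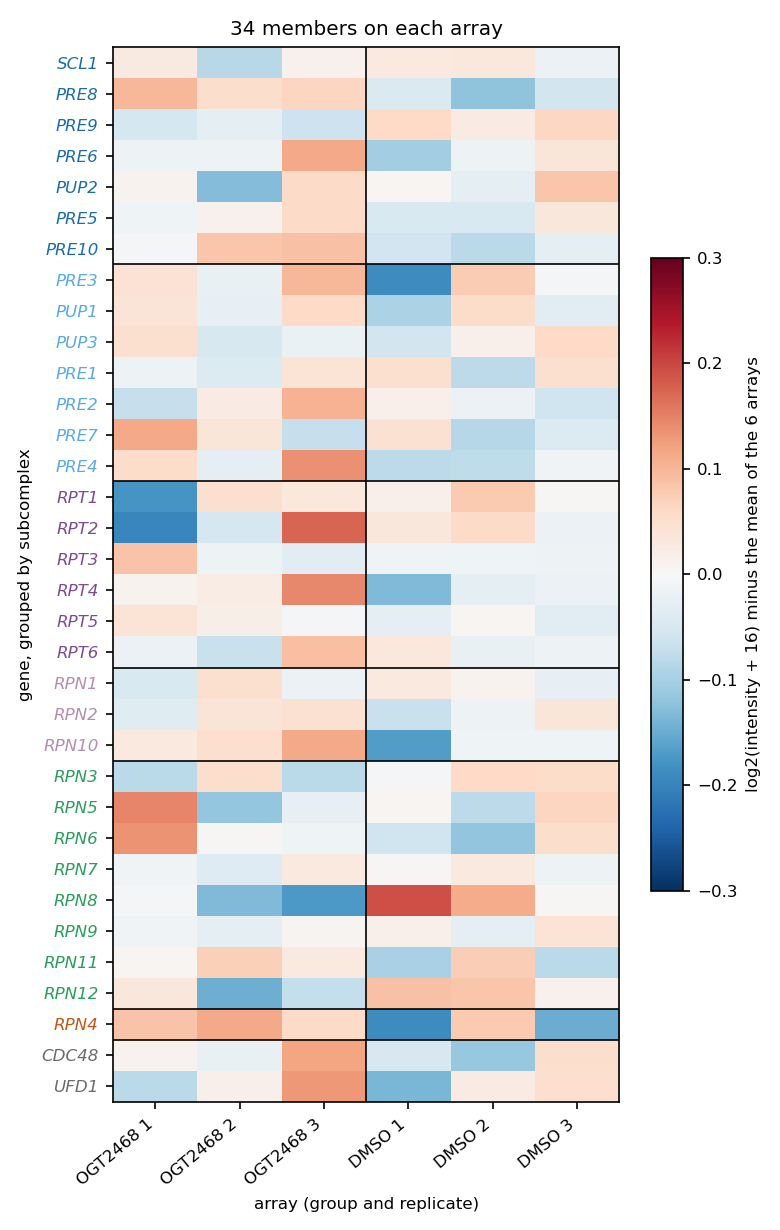
Level of each of the 34 genes (rows, grouped by subcomplex from the alpha ring at the top to Cdc48-Ufd1 at the bottom, with label colours marking the subcomplex) on each of the 6 arrays (columns, OGT2468 left and DMSO right), as log2(intensity + 16) minus the gene's mean over the 6 arrays. Red is above and blue below that mean, and no subcomplex has its rows all red on one side of the centre line and all blue on the other.

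Among the 7 alpha-ring genes the median change was 0.04, with 4 changes above 0 and 3 below. The alpha ring forms the gate of the barrel and docks the cap. PRE8 (YML092C), the alpha2 subunit, had 12.00, 11.95 and 11.97 in OGT2468 and 11.86, 11.78 and 11.85 in DMSO (log2 intensity). The 3 OGT2468 arrays were all above the 3 DMSO arrays, and the change was 0.15 ± 0.06 (SE, n = 3 per group; limma adjusted p = 0.282). PRE9 (YGR135W), the alpha3 subunit and the 1 core subunit that yeast can live without, had 11.71, 11.73 and 11.70 in OGT2468 and 11.82, 11.79 and 11.83 in DMSO. Its groups did not overlap either, and its change lay below 0, at -0.10 ± 0.05, and did not pass (limma adjusted p = 0.437, n = 3 per group). The groups of PRE10, alpha7, did not overlap, with a change of 0.11. SCL1 (-0.03), PRE6 (0.06), PUP2 (-0.04) and PRE5 (0.04), which encode alpha1, alpha4, alpha5 and alpha6, had overlapping groups.

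The 7 beta-ring genes were the most alike among the subcomplexes with more than 2 genes, with an SD of 0.04 between their changes and a median of 0.05. In all 7 the groups overlapped. Only beta1, beta2 and beta5 carry active sites. PRE2 (YPR103W), beta5 and the site of chymotrypsin-like cleavage, had 11.93, 12.02 and 12.11 in OGT2468 and 12.02, 11.98 and 11.94 in DMSO, a change of 0.04 with a 95% interval of 0.915-fold to 1.16-fold. PRE3, beta1, which cuts after acidic residues, had a change of 0.08, and PUP1, beta2, which cuts after basic residues, one of 0.05. The largest change of the ring was that of PRE4 (YFR050C), beta7, at 12.11, 12.03 and 12.19 in OGT2468 and 11.98, 11.98 and 12.04 in DMSO (0.11 ± 0.07, SE, n = 3 per group; limma adjusted p = 0.488). The lowest was that of PUP3 (YER094C), beta3, at 12.05, 11.95 and 11.98 in OGT2468 and 11.94, 12.01 and 12.05 in DMSO, a change of -0.01. PRE1 (beta4) stood at -0.01 and PRE7 (beta6) at 0.05.

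The 6 ATPases of the base, Rpt1 to Rpt6, form the ring that unfolds substrates, and their median change was 0.01. RPT4 (YOR259C) had 11.68, 11.69 and 11.82 in OGT2468 and 11.54, 11.64 and 11.66 in DMSO. The OGT2468 arrays lay above the DMSO arrays by a small margin, and the change was 0.12 ± 0.07 (SE, n = 3 per group; limma adjusted p = 0.471). RPT1 (YKL145W) had 11.59, 11.82 and 11.80 in OGT2468 and 11.79, 11.85 and 11.78 in DMSO, a change of -0.07. RPT2, whose product opens the core gate, varied most within a group of any member, with 11.00, 11.15 and 11.37 in OGT2468 (SD 0.19) and 11.24, 11.26 and 11.18 in DMSO (SD 0.04). Its change was -0.05. RPT3 (0.03), RPT5 (0.04) and RPT6 (0.00) had overlapping groups. Of the base subunits that are not ATPases, RPN10 (YHR200W), a ubiquitin receptor, had 11.75, 11.78 and 11.84 in OGT2468 and 11.56, 11.71 and 11.71 in DMSO, groups that did not overlap (0.13 ± 0.07, SE, n = 3 per group; limma adjusted p = 0.432). The scaffold subunits showed smaller values. RPN1 (YHR027C) had 12.45, 12.55 and 12.48 in OGT2468 and 12.53, 12.51 and 12.48 in DMSO, a change of -0.01, and RPN2 had a change of 0.03.

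Of the subcomplexes, the lid was the 1 with a median below 0 in the fit reported here, at -0.02, with 3 of its 8 changes above 0 and 5 below. That sign depended on the scaling. The median of the lid was 0.01 with scaling on the upper quartile, and with no scaling every subcomplex had a median below 0. The enzyme of the lid is Rpn11, which cuts ubiquitin chains off the substrate and works as a pair with Rpn8. RPN11 (YFR004W) had 10.93, 11.00 and 10.96 in OGT2468 and 10.83, 11.00 and 10.85 in DMSO, a change of 0.07 with overlapping groups. RPN8 (YOR261C) had 11.55, 11.42 and 11.38 in OGT2468 and 11.75, 11.66 and 11.56 in DMSO. The groups of RPN8 nearly touched, at OGT2468 replicate 1 and DMSO replicate 3, and the change of -0.21 ± 0.08 was the largest in size of all 34 members (SE, n = 3 per group; limma adjusted p = 0.286). RPN6 (YDL097C), a clamp between the lid and the core, had the highest change of the lid, 0.08, with 12.07, 11.94 and 11.92 in OGT2468 and 11.87, 11.82 and 11.99 in DMSO. The other lid genes were RPN12 (-0.12), RPN3 (-0.07), RPN9 (-0.02), RPN7 (-0.01) and RPN5 (0.00), and their groups overlapped.

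RPN4 (YDL020C) had 10.73, 10.76 and 10.70 in OGT2468 and 10.45, 10.72 and 10.50 in DMSO. The OGT2468 arrays were close together (SD 0.03) and the DMSO arrays spread more widely (SD 0.14), with DMSO replicate 2 inside the range of OGT2468. The change was 0.17 ± 0.09 (SE, n = 3 per group), a ratio of 1.13 with a 95% interval of 0.973 to 1.31, and did not pass (limma adjusted p = 0.396). Without DMSO replicate 2 it was 0.25 (limma adjusted p = 0.170), and without any other 1 array it lay between 0.12 and 0.19. In the deposited intensities, before any scaling, RPN4 stood at 1706, 1501 and 1334 in OGT2468 and at 1447, 1614 and 1883 in DMSO, and without scaling its change was -0.12 (limma adjusted p = 0.732). Because Rpn4 is controlled largely through its degradation, the transcript level does not report the amount of the protein, which was not measured.

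CDC48 (YDL126C) had 12.83, 12.80 and 12.94 in OGT2468 and 12.77, 12.71 and 12.87 in DMSO, and UFD1 (YGR048W) had 9.07, 9.17 and 9.28 in OGT2468 and 9.01, 9.18 and 9.20 in DMSO. In both genes the groups overlapped, and the changes were 0.07 and 0.04. Their 95% intervals ended at 1.19-fold on the upper side and at 0.927-fold for CDC48 and 0.889-fold for UFD1 on the lower side.

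**Figure D2:**
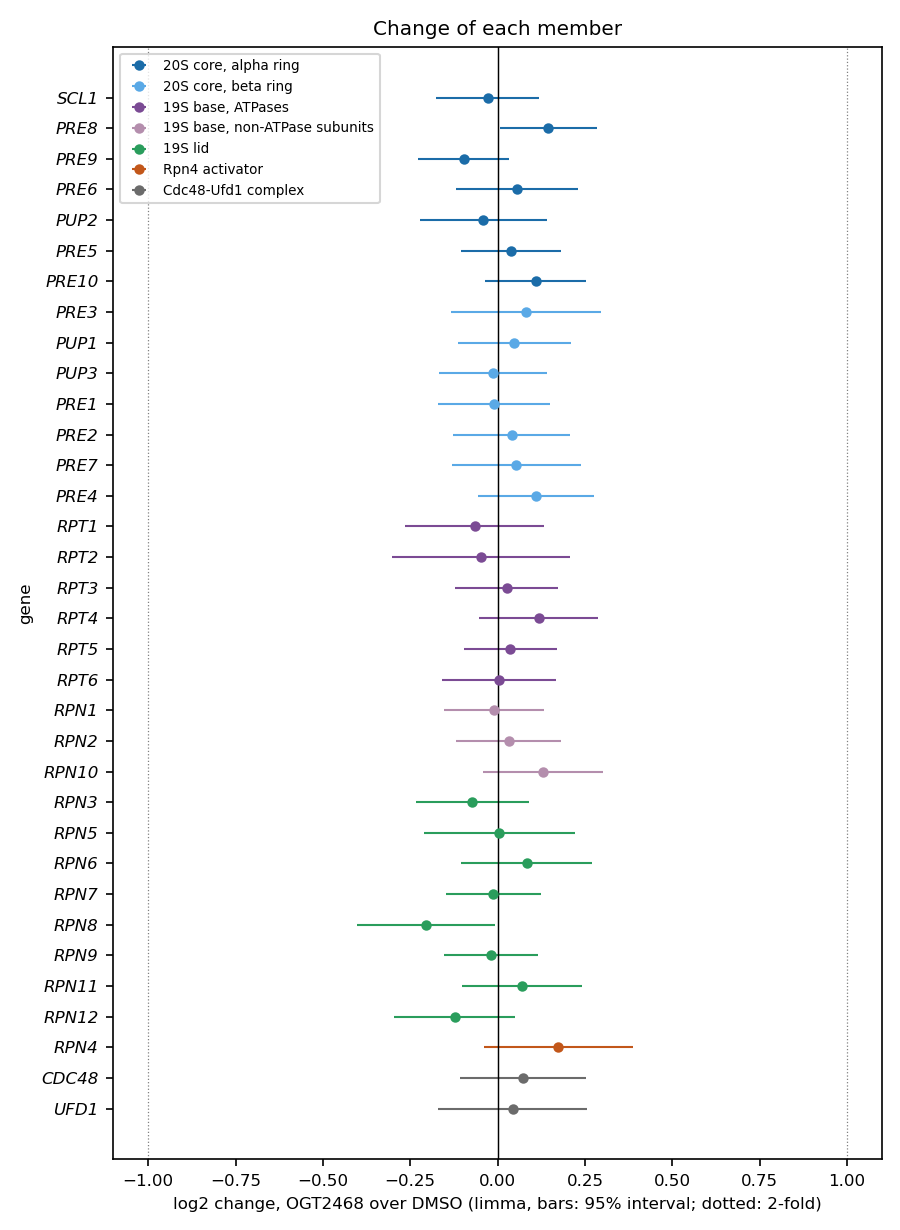
Change of each of the 34 genes (points, one row per gene, coloured by subcomplex) as the log2 ratio of OGT2468 over DMSO on the horizontal axis, with the 95% limma interval as a bar and dotted lines at a 2-fold change. The points lie between -0.21 (RPN8) and 0.17 (RPN4), 32 of the 34 bars cross 0, and none reaches a dotted line.

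The members also varied little among themselves. The SD between the changes of the 31 subunits was 0.08, close to the SE of a single change (0.07 in the median). The absolute change was under 0.2 in 96.8% of the subunits. Among the 1151 named probe sets whose mean level lay in the same range as the subunits, from 10.77 to 12.50, it was under 0.2 in 80.5% and the SD of the changes was 0.22. That range was set from the subunits' own levels, and the shares are given as a description with no test. The groups of arrays did not overlap in 6 of the 34 members (17.6%), against 24.1% of all tested probe sets. Of the 5498 probe sets named to 1 S. cerevisiae gene, 847 had all OGT2468 arrays above the DMSO arrays and 895 all below. Together these are a larger share than that over all tested probe sets. The mean level of the 31 subunits, relative to its mean over the 6 arrays, was 0.01, -0.01 and 0.03 on the OGT2468 arrays and -0.02, -0.00 and 0.00 on the DMSO arrays, so the groups overlapped. The 14 core genes had 0.02, -0.02 and 0.05 in OGT2468 and -0.03, -0.02 and 0.00 in DMSO. The 17 genes of the cap had -0.01, -0.01 and 0.01 in OGT2468 and -0.01, 0.01 and 0.00 in DMSO.

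The sign of the subunits' change depended on how the arrays were scaled. In the deposited table probe sets of S. cerevisiae genes had a median of 842, 758 and 691 intensity units in OGT2468 and 897, 786 and 1150 in DMSO, so that the groups overlapped and DMSO replicate 3 was the brightest array. With no scaling between arrays all 34 members had a change below 0, as did 90.8% of all named probe sets, and the median was -0.25 for the subunits and -0.27 for all named probe sets. With scaling on the hybridization controls, control RNAs of the hybridization step, the 2 medians were -0.15 and -0.18. These controls do not measure messenger RNA per cell. Under the 5 scalings the median of the subunits exceeded that of all named probe sets by 0.02 to 0.04. Quantile normalization removes any difference in total messenger RNA per cell, and the changes given here are relative to the other genes.

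**Figure D3:**
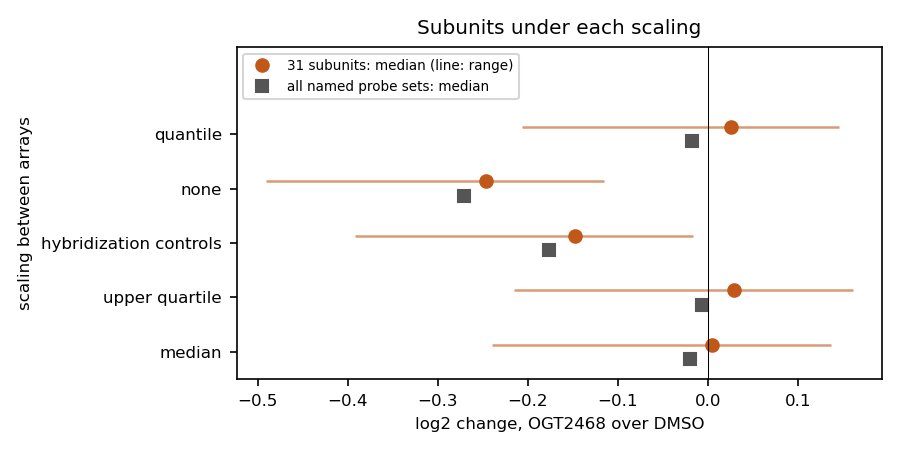
Median change of the 31 subunits (orange circles, with a line from the lowest to the highest subunit) and of all probe sets named to 1 S. cerevisiae gene (grey squares), as the log2 ratio of OGT2468 over DMSO, under 5 ways of scaling the arrays (rows). The 2 medians move together from near 0 under quantile scaling to -0.25 and -0.27 with none, and differ by 0.02 to 0.04 in each row.

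Around the complex itself, 114 other genes of protein degradation and its regulation were examined in 7 lists. Of these, 4 (3.51%) rose and 0 fell, where 1.83% of all tested probe sets were higher and 0.758% lower. All 114 are named genes, and among the 5498 probe sets named to 1 S. cerevisiae gene 148 were higher and 60 lower. Those are larger shares than over all tested probe sets, and the higher one is nearer to 3.51%. Of 18 measured genes for assembly chaperones and associated factors of the proteasome, 3 rose. ADD66 (YKL206C), also called PBA2, a chaperone that helps build the alpha ring, had 10.42, 10.43 and 10.55 in OGT2468 and 10.06, 10.14 and 10.06 in DMSO (0.38 ± 0.07, SE, n = 3 per group; limma adjusted p = 0.0485). FUB1, related to the mammalian proteasome regulator PI31, had 8.88, 8.89 and 8.99 in OGT2468 and 8.46, 8.48 and 8.59 in DMSO (0.41 ± 0.07; limma adjusted p = 0.0421). SPG5, which is needed for proteasome assembly in stationary phase, had 11.64, 11.41 and 11.34 in OGT2468 and 10.82, 10.96 and 10.91 in DMSO (0.56 ± 0.10; limma adjusted p = 0.0467). In each of the 3 genes all OGT2468 arrays were above all DMSO arrays. The 3 calls were all lost without any 1 array, and the count was also 0 with no scaling, with scaling on the hybridization controls, the upper quartile or the median, with a pseudocount of 1 and with the replicate number as a block. The count was 4, with TMA17 added, in 4 settings that also called more of all tested probe sets, namely a pseudocount of 64, only the probe sets above background, only the named ones, and an intensity trend in the variance. The median change of the list was 0.07. Of its other members, named after their values were seen, TMA17, a chaperone of cap assembly, had the largest change, 0.57 with an SE of 0.13, and did not pass in the fit reported here (limma adjusted p = 0.105, and 0.00810 to 0.462 over the alternatives). PBA1, the partner of ADD66, stood at 0.23, the core assembly factor UMP1 at 0.20 and the base chaperone HSM3 at -0.32. RPN13 (0.02) and SEM1 (-0.15), subunits of the cap that were counted in this list, did not pass either.

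Genes of ER-associated degradation, the route in which Cdc48 and Ufd1 extract misfolded ER proteins for the proteasome, had a median change of 0.17 over 15 measured genes, beside 0.03 for the 31 proteasome subunits and -0.01 over all tested probe sets. DFM1 (YDR411C), an ER membrane protein that recruits Cdc48, rose. It had 10.09, 10.19 and 10.19 in OGT2468 and 9.48, 9.69 and 9.66 in DMSO (0.55 ± 0.08, SE, n = 3 per group; limma adjusted p = 0.0286). DER1, its relative in the Hrd1 ligase complex, had a change of 0.58 ± 0.10 and missed the threshold narrowly (limma adjusted p = 0.0501). In 9 of the 15 genes the OGT2468 arrays were all above the DMSO arrays, and in none were they all below. That order held for 12% of all tested probe sets and for 847 of the 5498 named to 1 S. cerevisiae gene, a larger share. The count of 1 depended on the setting. It was 5 with a pseudocount of 64, with only the probe sets above background and with only the named ones, and 4 with an intensity trend in the variance. It was 0 with no scaling, with control or median scaling, with a pseudocount of 1, with the replicate block and without any 1 array other than DMSO replicate 1, where DER1 was called in place of DFM1. The difference between this list and the proteasome genes was not tested.

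**Figure D4:**
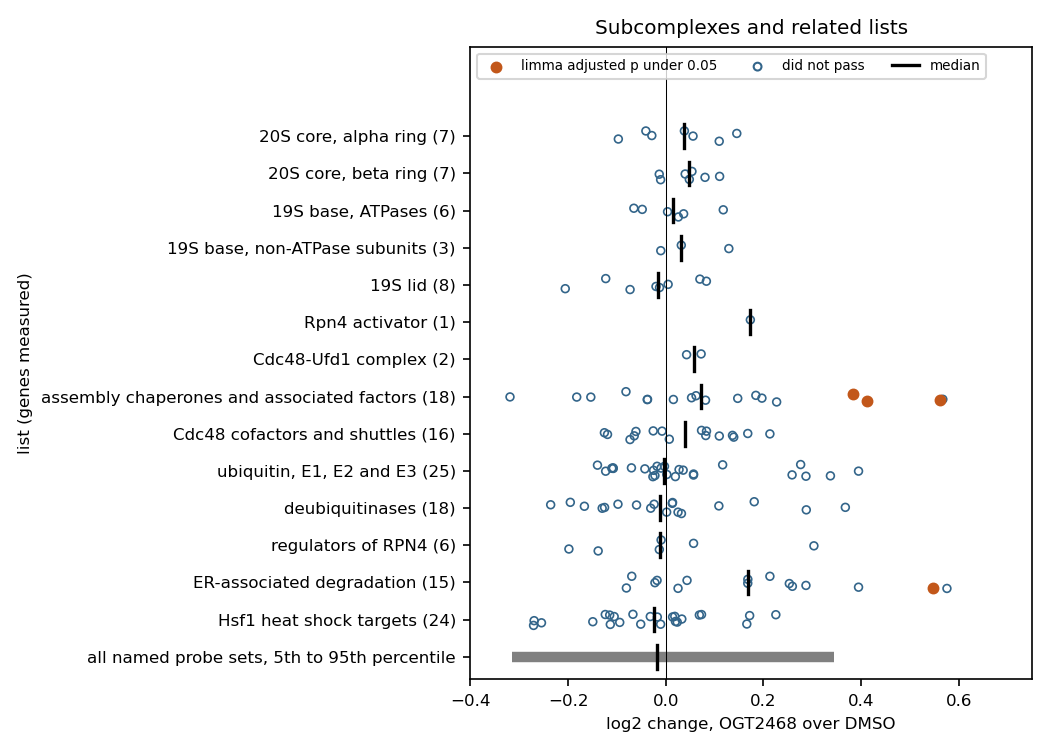
Changes of the genes of each subcomplex and of the 7 related lists (rows, with the number of genes measured), as the log2 ratio of OGT2468 over DMSO. Open circles did not pass, filled circles passed at a limma adjusted p under 0.05, black ticks are medians, and the grey bar spans -0.31 to 0.34, the 5th to 95th percentile of all named probe sets. The subcomplex rows hold no filled circle, and the assembly list holds 3 and the ER list 1.

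None of the other 5 lists had a gene that passed in limma in the fit reported here. At an unadjusted p under 0.05 there were 2 genes among the Cdc48 cofactors and shuttles, 5 among ubiquitin and its enzymes, 4 among deubiquitinases, 1 among regulators of RPN4 and 2 among heat shock genes. Counted once each, these were 14 of 87 genes (16.1%), against 16.4% of all tested probe sets. The 87 are named genes, and 1146 of the 5498 probe sets named to 1 S. cerevisiae gene were under that p, a larger share. Under the same 4 settings that called TMA17, genes of 4 of these lists were called. Of the ubiquitin list 3 or 4 were higher, with UBI4, UBC7 and HRD1 each time. Of the deubiquitinases 1 or 2 were higher, with UBP5 each time. Of the regulators of RPN4 only HSF1 was higher. Of the heat shock genes 1 was lower, SSA2 with the intensity trend and HSP26 in the other 3 settings. The median change was 0.04 over 16 cofactors of Cdc48 and ubiquitin shuttles, where the genes with the lowest p were UBX2 (0.21), which anchors Cdc48 at the ER membrane, and NPL4 (0.17), the partner of Ufd1. Over 25 genes of ubiquitin and its activating, conjugating and ligating enzymes it was -0.00, and the lowest p belonged to the conjugating enzyme gene UBC7 (0.29; limma adjusted p = 0.0744) and the ligase gene HRD1 (0.39; limma adjusted p = 0.0812). UBX2, NPL4, UBC7 and HRD1 are also on the ER list, which shares 6 genes with other lists. Over 18 deubiquitinases the median was -0.01, and UBP5 (0.37; limma adjusted p = 0.0512) and DOA4 (0.29) had the lowest p. The stress-induced polyubiquitin gene UBI4, named after its value was seen, had a change of 0.28 (limma adjusted p = 0.102).

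The transcription factors known to activate RPN4 and the ubiquitin ligase that marks Rpn4 for degradation were measured as well. HSF1, the heat shock factor, had 9.68, 9.53 and 9.71 in OGT2468 and 9.37, 9.31 and 9.33 in DMSO, groups that did not overlap, with a change of 0.30 ± 0.07 (SE, n = 3 per group) that did not pass in the fit reported here (limma adjusted p = 0.106, and 0.0262 to 0.925 over the alternatives). YAP1, the oxidative stress factor, stood at -0.20, and the drug resistance factors PDR1 and PDR3 at -0.01 and -0.14. The ligase gene UBR2 had a change of -0.01 and MUB1, which encodes its partner, one of 0.06. Of the 24 genes on the heat shock list none passed in that fit, and their median change was -0.02. The lowest p among them belonged to HSP26 (-0.27; limma adjusted p = 0.0725) and SSA4 (-0.25; limma adjusted p = 0.265), chaperone genes that stood on the lower side.

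**Figure D5:**
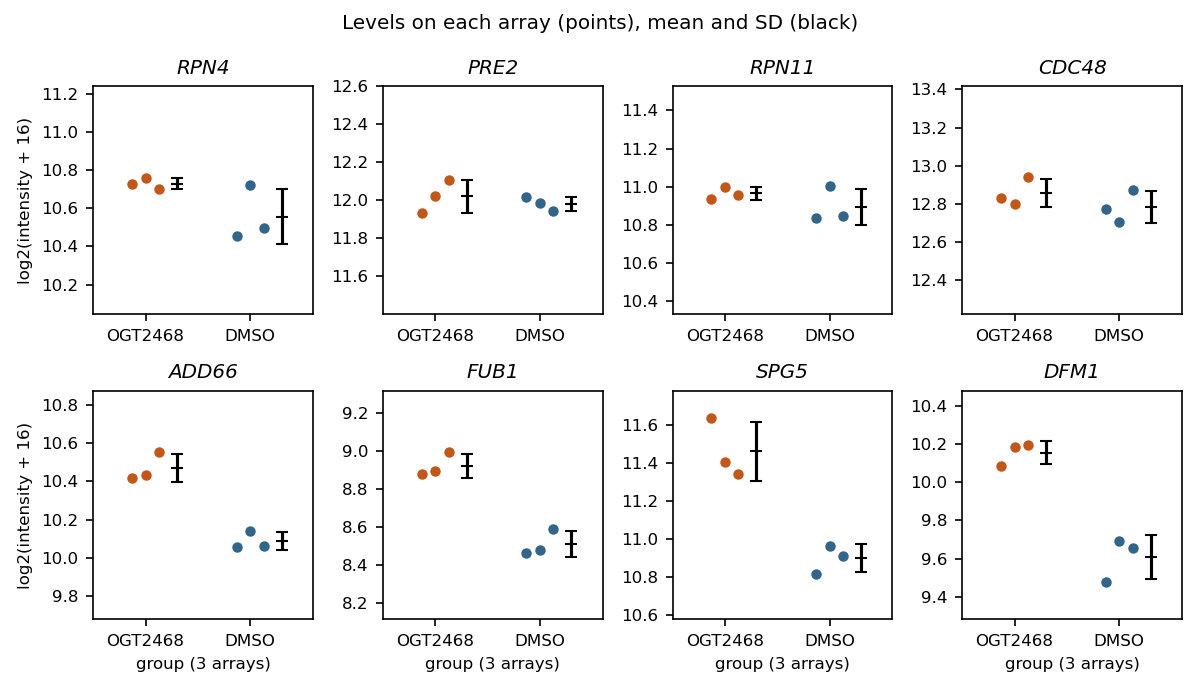
Levels of RPN4, PRE2, RPN11 and CDC48 (top) and of ADD66, FUB1, SPG5 and DFM1 (bottom) on each array, as log2(intensity + 16), with OGT2468 in orange on the left and DMSO in blue on the right of each panel, and the mean with its SD in black (n = 3). Each vertical axis starts above 0 and spans the same range in all panels. The groups overlap in the top row and are apart in the bottom row.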

How the data were processed

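Each array has 1 deposited intensity per probe set, linear in scale. Per the submitters' processing notes GCRMA was used, without a version. The medians and upper quartiles of the deposited values differed between arrays, so quantile normalization was applied over the 6 arrays to the 8968 probe sets tested, 16 was added and log2 was taken, which slightly understates changes of dim genes. Of 10928 probe sets 5498 had 1 S. cerevisiae gene by the platform annotation and gene IDs of the R64 assembly. The 1747 probe sets of another species and 213 controls were not tested. The 8968 tested were those 5498 and 3470 to which the annotation gives no gene name. Only 5479 of the 8968 were above background on all 3 arrays of at least 1 group. Of the 5498 named ones, 95.6% to 97.1% were above background on each array. Shares over all tested probe sets therefore include unnamed ones that were not above background. OGT2468 was compared with DMSO with limma 3.58.1 (lmFit, eBayes; R 4.3.3), without covariates, with Benjamini-Hochberg adjustment at 0.05 and 95% intervals. Lists are described by counts and medians. The text names all 34 members, with each array's values for RPN4 and for the highest and lowest change of each subcomplex, and of each related list the genes that passed and the 2 with the lowest p, plus the regulators of RPN4. The members, lists, rules and alternatives were chosen with earlier results of these data known. Limma was also tested on simulated data drawn from the 8968 probe sets, with independent noise and no scaling step. Changes were added only to the brighter probe sets, so recovery of dim ones was not tested. Among the brighter ones limma recovered 62.2% of 1.41-fold and 97.0% of 2-fold changes, and 97.2% of the intervals held a simulated 1.41-fold change. Precision is limited by the number of arrays, 3 per group. For RNA integrity, the log2 ratio of 3' over 5' signal overlapped between the groups for each of ACT1, SPT15 and SRB4. It was 0.33 to 0.41 in OGT2468 and 0.30 to 0.35 in DMSO for ACT1. The ratios were larger for SPT15 (1.10 to 1.30 in OGT2468 and 0.93 to 1.43 in DMSO). They were largest for SRB4 (2.23 to 2.30 in OGT2468 and 2.12 to 2.46 in DMSO). Any 2 arrays held equal values in at most 100 of the 10928 probe sets. Promoter and protein sequences and genome positions were not used here.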

Additional observations from a re-analysis of the deposited data

How the results depend on the processing

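Over the 16 alternatives run, which included leaving out each array, 0 of the 34 members were called in either direction, and the lowest adjusted p of any member was 0.0883, for PRE8 with an intensity trend and robust prior. The median of the 31 subunits was -0.25 with no scaling and -0.15 with control scaling, and between 0.00 and 0.04 elsewhere. Over all probe sets, where 164 were higher and 68 lower, the counts of higher ones were 22 with no scaling (44 lower), 45 with control scaling and 101 with the median subtracted (41 lower). They were 292 higher and 187 lower with a pseudocount of 64, 373 and 239 among those above background, 326 and 203 among named ones, and 356 and 240 with the intensity trend, and between 61 and 91 higher and 28 and 40 lower without 1 array. Of all calls 70.7% were higher, against 33.3% with no scaling, 45.0% with control scaling and 59.7% with the intensity trend. The 3 assembly genes called higher were 0 with no scaling, control, upper quartile and median scaling, a pseudocount of 1, the replicate block and without any 1 array (0 to 0), and 4 with a pseudocount of 64, above background, among named ones and with the intensity trend. These 4 settings also called 3 or 4 genes of the ubiquitin list, 1 or 2 deubiquitinases and HSF1 as higher and 1 heat shock gene as lower, where 0 were called otherwise. The count of 1 for ER-associated degradation was 5 with a pseudocount of 64, among probe sets above background and among named ones, 4 with the intensity trend, 0 with no scaling, control and median scaling, a pseudocount of 1 and the replicate block, and 0 to 1 without 1 array. The causes of these shifts were not tested. The titles number the replicates, and with that number as a replicate block 27 probe sets were higher and 14 lower. Deviations of same-numbered arrays correlated at 0.19, 0.14 and 0.06 over named probe sets, each array best with its own number, which is a hint from the data and not from the design. Averaging several probe sets of a gene was not run, since every member had 1. With 3 arrays per group an exact two-sided permutation test cannot give a p below 0.1.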
